A study of Mus musculus with 24 samples.

Results

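The small leucine-rich proteoglycans (SLRPs) are a family of secreted matrix proteins, represented here by the 10 genes Lum, Dcn, Bgn, Fmod, Ogn, Omd, Prelp, Aspn, Kera and Podn, picked by name and found by gene symbol among the 46078 genes of each expression table. All 10 symbols were present in both tables. The study asked what loss of Chd4, the helicase subunit of the NuRD chromatin remodelling complex, does to muscle satellite cells, the stem cells that rebuild skeletal muscle. RNA-seq covered 16 mouse samples in 4 groups of 4, all of strain C57BL/6 and aged 2 to 4 months. For the in vivo comparison, muscle of Chd4dPax7ER and of Chd4fl/fl mice was injured with cardiotoxin and its satellite cells were sorted 3 days later, keeping cells positive for α7-integrin and CD34 and negative for SCA1 and CD45. In vitro, proliferating primary myoblasts of genotype Chd4fl/fl, grown from satellite cells of uninjured muscle, were taken 72 hours after adenovirus carrying Cre (AdCRE) or GFP (AdGFP).

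All groups carried the floxed allele or its deleted form, and the labels do not say whether Chd4fl/fl mice had a Cre transgene or the same dosing as the Chd4dPax7ER mice. Effects of Cre itself, of the viral construct in culture and of Chd4 loss cannot be told apart. The replicate numbers run 1 to 4 in each group, and since no label ties them to separate animals or cultures, p-values here measure only the spread between these samples. Levels are RPKM, reads scaled to transcript length and library size, as the authors deposited them, which are per length and so comparable between genes of one table. The tables were normalized separately, and levels were compared only within a table. Fold changes are on the log2(RPKM + 0.5) scale, which understates the change of low genes, and a gene was called at a limma adjusted p under 0.05 over all genes tested.

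The library totals were 286803 to 306114 RPKM in sorted cells and 288659 to 326812 RPKM in culture. Low RPKM values move in steps worth 1 read, which gave approximate read numbers on the assumption that the largest common step is a single read; by these steps the in vitro libraries were on average 4.38 times as deep as the in vivo libraries. Chd4 itself averaged 56.7 ± 8.37 RPKM in Chd4dPax7ER cells and 126.4 ± 6.77 RPKM in Chd4fl/fl cells (SD, n = 4 each), and 20.8 ± 3.49 RPKM in AdCRE cells and 75.1 ± 7.75 RPKM in AdGFP cells, with limma log2 fold changes of -1.16 (adjusted p = 0.000152) and -1.84 (adjusted p = 0.00374). Groups did not overlap for Chd4 in either setting. Pax7, the satellite cell transcription factor, was present in every sorted library, at 7.62 to 14.5 RPKM in Chd4dPax7ER cells and 14.3 to 29.0 RPKM in Chd4fl/fl cells.

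SLRPs share a core of leucine-rich repeats that folds into a curved solenoid, usually with chondroitin, dermatan or keratan sulphate chains attached. They bind collagen fibrils and set their diameter and spacing, and they hold growth factors such as TGF-β and myostatin in the matrix. In skeletal muscle, decorin and biglycan are made mainly by connective tissue cells and by myogenic cells, and biglycan also links to the dystrophin-associated complex at the muscle fibre surface.

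In sorted satellite cells, 3 SLRP genes were higher in Chd4dPax7ER than in Chd4fl/fl cells: Lum by 22.4-fold, Dcn by 10.0-fold and Bgn by 2.51-fold in mean RPKM. Prelp and Aspn averaged higher with overlapping groups and did not pass, Ogn was at like levels in both groups, Fmod was low with overlapping groups, and Omd, Podn and Kera were under the filter on low values described next. Of the 10 members, 7 passed the filter on low values (RPKM of at least 0.5 in at least 4 of 8 libraries) and 3 of these were called higher, beside 14.7% of all 13344 genes tested; none was lower, beside 11.9% of all genes. In the same 3 the groups did not overlap, beside 30.3% of all genes tested whose groups lay apart in either direction. The median log2 fold change of the 7 tested members was 0.86, against -0.02 over all genes tested. RPKM of sorted cells in bulk cannot tell apart more cells of a type from more RNA per cell.

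**Figure D1:**
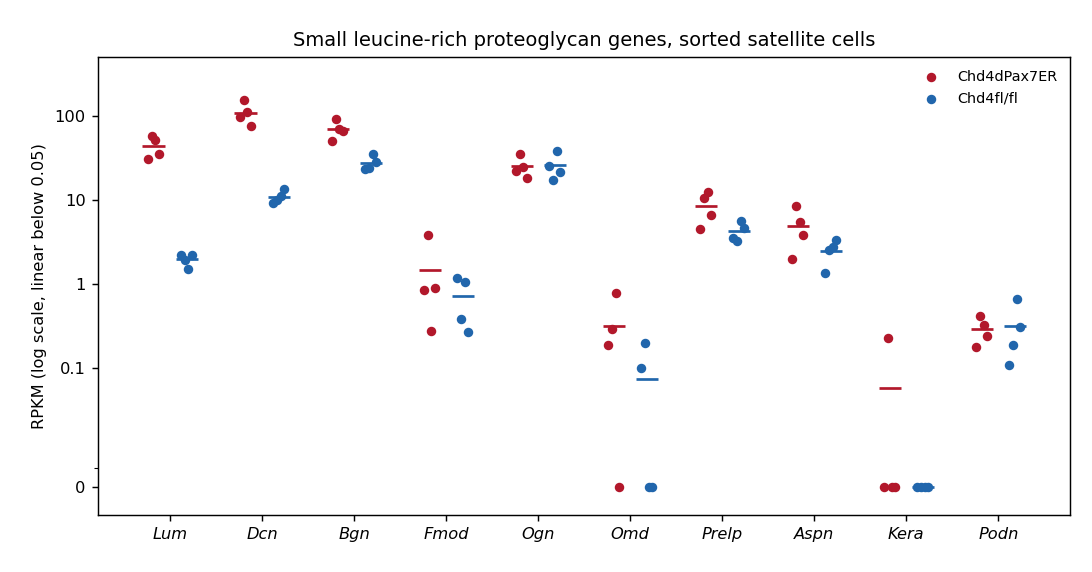
RPKM of the 10 SLRP genes in each sorted satellite cell library (log scale, linear below 0.05 RPKM), with Chd4dPax7ER points left of Chd4fl/fl points and short lines for the group means. For Lum, Dcn and Bgn all 4 Chd4dPax7ER libraries lie above all 4 Chd4fl/fl libraries, while for Ogn, Prelp, Aspn, Fmod, Omd and Podn the groups overlap.

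The class I members are decorin (Dcn) and biglycan (Bgn), which carry chondroitin or dermatan sulphate chains and bind TGF-β, and asporin (Aspn), which lacks such chains and is named, from the human protein, for a stretch of aspartates. Dcn stood at 97.1, 153.7, 110.3 and 76.4 RPKM in Chd4dPax7ER libraries 1 to 4, against 9.16, 10.1, 11.1 and 13.4 RPKM in Chd4fl/fl libraries 1 to 4. The lowest Chd4dPax7ER library was thus well above the highest Chd4fl/fl library, and the groups did not overlap. These levels correspond to about 1073 to 2153 reads per Chd4dPax7ER library and 121 to 190 reads per Chd4fl/fl library. Dcn averaged 109.4 ± 32.7 RPKM in Chd4dPax7ER cells and 10.9 ± 1.81 RPKM in Chd4fl/fl cells (SD, n = 4 each), a limma log2 fold change of 3.23 (SE 0.20, 95% interval 2.79 to 3.68, adjusted p = 2.66e-05). In the Chd4dPax7ER group, decorin messenger was the most abundant of the family.

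Bgn stood at 50.5, 92.3, 70.2 and 66.7 RPKM in Chd4dPax7ER libraries 1 to 4, against 23.2, 23.9, 35.7 and 28.6 RPKM in Chd4fl/fl libraries 1 to 4. All 4 Chd4dPax7ER values were higher than every Chd4fl/fl value, with a gap narrower than that of Dcn. Bgn averaged 69.9 ± 17.2 RPKM in Chd4dPax7ER cells and 27.8 ± 5.76 RPKM in Chd4fl/fl cells (SD, n = 4 each), a limma log2 fold change of 1.30 (SE 0.19, 95% interval 0.88 to 1.73, adjusted p = 0.00155). Aspn stood at 1.98, 8.37, 5.47 and 3.79 RPKM in Chd4dPax7ER libraries 1 to 4, against 1.35, 2.56, 2.77 and 3.31 RPKM in Chd4fl/fl libraries 1 to 4. Chd4dPax7ER library 1 fell inside the Chd4fl/fl range, and the other Chd4dPax7ER libraries lay above it. The limma log2 fold change of Aspn was 0.75 (SE 0.38, 95% interval -0.10 to 1.60, adjusted p = 0.173).

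The class II members are lumican (Lum), fibromodulin (Fmod), keratocan (Kera), osteomodulin (Omd) and prolargin (Prelp). Lumican, fibromodulin, keratocan and osteomodulin can carry keratan sulphate, and lumican and fibromodulin compete for the same region of the collagen molecule. Lum stood at 30.7, 58.5, 51.5 and 35.0 RPKM in Chd4dPax7ER libraries 1 to 4, against 2.21, 1.91, 1.53 and 2.19 RPKM in Chd4fl/fl libraries 1 to 4. The groups were far apart, with a 1.90-fold span within Chd4dPax7ER and a 1.44-fold span within Chd4fl/fl. These values correspond to about 426 to 816 reads per Chd4dPax7ER library and 19 to 31 reads per Chd4fl/fl library, so that counting error weighs mainly on the Chd4fl/fl side. Lum averaged 43.9 ± 13.2 RPKM in Chd4dPax7ER cells and 1.96 ± 0.318 RPKM in Chd4fl/fl cells (SD, n = 4 each), a limma log2 fold change of 4.14 (SE 0.21, 95% interval 3.67 to 4.60, adjusted p = 1.02e-05).

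Prelp, a collagen- and heparan sulphate-binding member, stood at 4.56, 10.5, 12.4 and 6.65 RPKM in Chd4dPax7ER libraries 1 to 4, against 3.54, 3.24, 5.67 and 4.59 RPKM in Chd4fl/fl libraries 1 to 4. Chd4dPax7ER library 1 lay inside the Chd4fl/fl range and the other Chd4dPax7ER libraries above it, the same arrangement as for Aspn. The limma log2 fold change of Prelp was 0.86 (SE 0.29, 95% interval 0.20 to 1.51, adjusted p = 0.0571), just short of the threshold. Without Chd4dPax7ER replicate 1, the library inside the Chd4fl/fl range, Prelp and Aspn passed and the number of members called became 5. Their limma log2 fold changes were then 1.10 (adjusted p = 0.0148) and 1.07 (adjusted p = 0.0394). Without any 1 of the other libraries neither passed. The limma adjusted p was then 0.0533 to 0.134 for Prelp and 0.161 to 0.374 for Aspn.

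Fmod stood at 0.86, 3.87, 0.28 and 0.90 RPKM in Chd4dPax7ER libraries 1 to 4, against 1.19, 0.38, 1.06 and 0.27 RPKM in Chd4fl/fl libraries 1 to 4. Apart from Chd4dPax7ER library 2, the libraries of both groups covered the same range, from 6 to 25 reads. The limma log2 fold change was 0.47 (SE 0.50, 95% interval -0.67 to 1.60, adjusted p = 0.534), and it was -0.02 without that library. Omd had about 2, 3, 8 and 0 reads in Chd4dPax7ER libraries 1 to 4, against 1, 2, 0 and 0 reads in Chd4fl/fl libraries 1 to 4, with an exact two-sided permutation p of 0.286. Kera was listed at 0.23 RPKM in Chd4dPax7ER library 2 and at 0 in the other 7 sorted libraries. No difference was detectable for Omd or Kera at this depth.

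Osteoglycin (Ogn), the class III member, also called mimecan, was one of the 2 main SLRPs of Chd4fl/fl cells. Ogn stood at 22.0, 35.4, 25.0 and 18.5 RPKM in Chd4dPax7ER libraries 1 to 4, against 25.4, 17.4, 38.7 and 21.6 RPKM in Chd4fl/fl libraries 1 to 4. The groups covered nearly the same range. The limma log2 fold change of Ogn was -0.01 (SE 0.25, 95% interval -0.58 to 0.56, adjusted p = 0.982), so the interval holds changes of either sign but not one as large as that of Bgn. Podn, the class V member podocan, had 0.18, 0.42, 0.33 and 0.24 RPKM in Chd4dPax7ER libraries 1 to 4, against 0.11, 0.19, 0.66 and 0.31 RPKM in Chd4fl/fl libraries 1 to 4. Podn was low in both groups, at 3 to 17 reads per library, with an exact two-sided permutation p of 0.971.

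**Figure D2:**
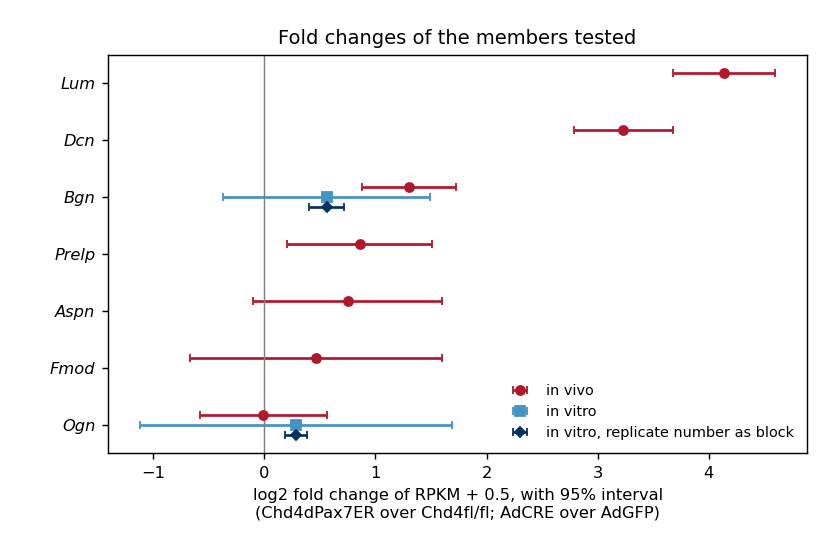
Limma log2 fold changes with 95% intervals of the SLRP genes that passed the filter on low values, in sorted satellite cells (Chd4dPax7ER over Chd4fl/fl) and in cultured myoblasts (AdCRE over AdGFP, with and without the replicate number as a block). Lum at 4.14 and Dcn at 3.23 stand far from the other members, and the Bgn and Ogn intervals in culture narrow with the block.

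The make-up of the SLRP messenger pool differed with the fold changes of single members. The 10 members summed to 208.0, 363.4, 276.2 and 208.2 RPKM in Chd4dPax7ER libraries 1 to 4, against 66.2, 59.9, 97.2 and 74.2 RPKM in Chd4fl/fl libraries 1 to 4. The pool was 3.55 times as large in Chd4dPax7ER cells by the group means. In Chd4dPax7ER cells Dcn held 41.4% of it, Bgn 26.8%, Lum 16.6% and Ogn 9.56%. In Chd4fl/fl cells Bgn held 37.5%, Ogn 34.1%, Dcn 15.0% and Lum 2.76%. Dcn and Bgn thus led the pool in Chd4dPax7ER cells, and Bgn and Ogn led it in Chd4fl/fl cells.

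**Figure D3:**
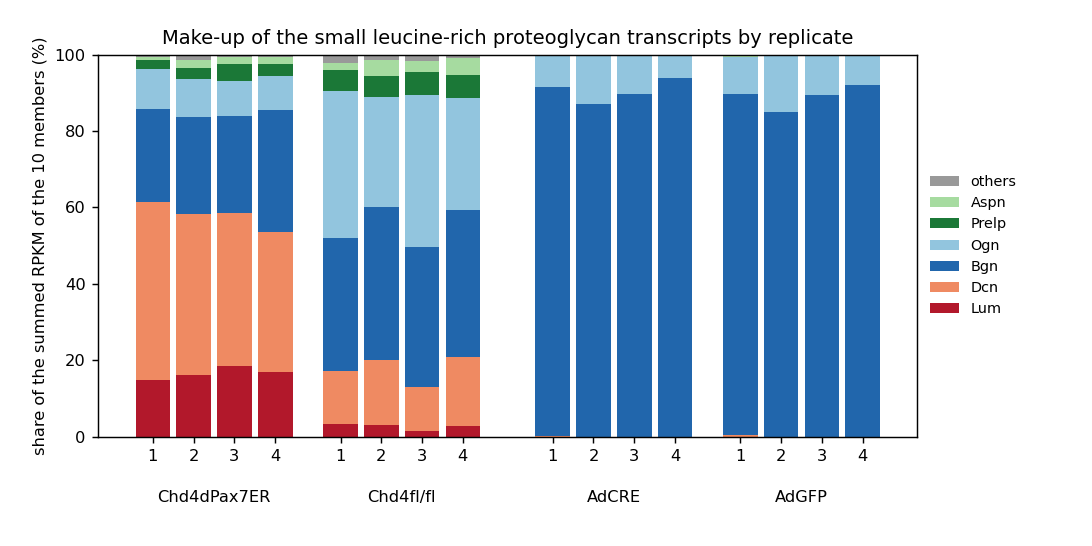
Share of the summed SLRP RPKM held by each gene in each of the 16 libraries, in percent, stacked by gene and numbered by replicate, with Chd4dPax7ER left of Chd4fl/fl and AdCRE left of AdGFP. Dcn, Bgn and Lum make up most of each Chd4dPax7ER bar, Bgn and Ogn most of each Chd4fl/fl bar, and Bgn nearly all of each bar in culture.

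Ratios within a library, chosen after the values were seen, do not depend on its overall scaling. Lum over Dcn was 0.317 to 0.467 in Chd4dPax7ER libraries and 0.138 to 0.241 in Chd4fl/fl libraries. Bgn over Dcn was 0.520 to 0.873 in Chd4dPax7ER libraries and 2.14 to 3.21 in Chd4fl/fl libraries. Ogn over Dcn spanned only 0.227 to 0.242 in Chd4dPax7ER libraries, against 1.62 to 3.48 in Chd4fl/fl libraries. None of these 3 ratios overlapped between the groups. This restates the unequal fold changes of Lum, Dcn, Bgn and Ogn given above and is no separate test.

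Chd4dPax7ER replicate 2 gave the highest Chd4dPax7ER value for 8 of the 10 members, all but Omd and Prelp, which were highest in replicate 3. The 7 tenocyte markers summed to 15.5, 45.6, 27.1 and 16.2 RPKM in Chd4dPax7ER libraries 1 to 4. Of these sums Thbs4, chosen after its values were seen, held 25.6 RPKM in library 2 and 4.60 to 5.07 RPKM in the others. Library 2 also had the highest Chd4dPax7ER sum for fibroblast, pericyte, leukocyte, Schwann, satellite cell and myofibre markers. Library 3 had it for endothelial and for cartilage and bone markers. Myofibre markers summed to 2450 RPKM in library 2 and 871.9 to 1174 RPKM in the others. Whether this bears on the SLRP values was not tested. Without Chd4dPax7ER replicate 2, the limma log2 fold changes were 3.98 for Lum, 3.05 for Dcn and 1.16 for Bgn, and all 3 were still called. Over the 8 sorted libraries, the log2 level of Lum had a Pearson r of 0.991 with Dcn, 0.936 with Bgn, 0.767 with Prelp, 0.636 with Aspn, 0.335 with Fmod and 0.026 with Ogn. Among all genes tested, the 5 with the highest r were Pipox (0.998), Flcn (0.997), Bmp8b (0.996), Adam15 (0.996) and Sdc3 (0.996). These are descriptions over libraries of 2 groups, and any gene that differs strongly between the groups has a high r.

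Because decorin and lumican are widely used as marks of fibroblasts, lists of markers for other cell types were read beside them. Of 14 markers of fibroblasts and fibro-adipogenic progenitors, the mesenchymal cells between muscle fibres, 11 were tested in vivo. Of these, 4 were higher in Chd4dPax7ER cells and 1 was lower by limma, beside 14.7% of all genes tested higher and 11.9% lower. Dpep1 had a log2 fold change of 2.29 (adjusted p = 0.000388), Col15a1 1.61 (adjusted p = 0.00448), Dpt 1.32 (adjusted p = 0.0407) and Gsn 0.68 (adjusted p = 0.0145), while Lox had -0.97 (adjusted p = 0.0256). The list summed to 112.2 to 193.2 RPKM in Chd4dPax7ER libraries and 70.9 to 103.8 RPKM in Chd4fl/fl libraries, 1.64 times by group means and without overlap. Tcf21 was listed at 0 in every library, and Pi16 and Dpp4 were under the filter.

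The receptor Pdgfra, the usual sort marker of these progenitors, stood at 1.43, 1.77, 1.82 and 0.89 RPKM in Chd4dPax7ER libraries 1 to 4, against 0.94, 1.10, 0.82 and 1.02 RPKM in Chd4fl/fl libraries 1 to 4, with a limma adjusted p of 0.180. Ly6a, which codes for SCA1, the antigen against which the cells were sorted, stood at 6.54 to 12.96 RPKM in Chd4dPax7ER libraries and 1.83 to 8.53 RPKM in Chd4fl/fl libraries (adjusted p = 0.191). Both sets of values overlapped. Ratios to Pdgfra were also chosen after the values were seen. Lum over Pdgfra within a library was 21.5 to 39.4 in Chd4dPax7ER cells and 1.74 to 2.35 in Chd4fl/fl cells. Dcn over Pdgfra was 60.6 to 86.8 in Chd4dPax7ER cells and 9.18 to 13.6 in Chd4fl/fl cells. As Pdgfra was low and not called, these ratios mostly restate the fold changes of Lum and Dcn. The share of these other cells in the SLRP results was not tested.

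Some other marker lists moved too. Among all genes tested in this fit, 14.7% were called higher and 11.9% lower. By limma, 8 of 8 myofibre genes were higher in Chd4dPax7ER cells, with sums of 871.9 to 2450 RPKM in Chd4dPax7ER libraries and 272.9 to 561.6 RPKM in Chd4fl/fl libraries. Of the pericyte markers 3 of 5 tested were higher and of the Schwann cell markers 3 of 5. Pericyte sums were 25.5 to 51.3 RPKM in Chd4dPax7ER libraries and 17.7 to 27.4 RPKM in Chd4fl/fl libraries, and Schwann sums were 21.7 to 59.8 RPKM in Chd4dPax7ER libraries and 27.0 to 40.2 RPKM in Chd4fl/fl libraries. Of the endothelial markers 1 of 2 tested was higher, and the list summed to 7.74 to 14.2 RPKM in Chd4dPax7ER libraries and 3.62 to 6.85 RPKM in Chd4fl/fl libraries. None of 3 tenocyte and none of 5 leukocyte markers tested was called by limma, and 0 of them had an unadjusted p under 0.05. Tenocyte sums were 15.5 to 45.6 RPKM in Chd4dPax7ER libraries and 13.7 to 19.6 RPKM in Chd4fl/fl libraries, and leukocyte sums were 65.6 to 146.4 RPKM in Chd4dPax7ER libraries and 56.1 to 104.2 RPKM in Chd4fl/fl libraries. For cartilage and bone, 1 of 2 markers tested was lower. Of the satellite cell markers 4 of 10 were higher and 1, Pax7, was lower. The satellite cell list summed to 1111 to 1338 RPKM in Chd4dPax7ER libraries and 692.2 to 870.5 RPKM in Chd4fl/fl libraries, without overlap. The part of the cells of these lists in the SLRP results was not tested.

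In cultured myoblasts the family was reduced to 2 members, Bgn and Ogn. Bgn held 90.5% of the summed SLRP RPKM in AdCRE cells and 88.9% in AdGFP cells, and Ogn held 9.18% in AdCRE cells and 10.7% in AdGFP cells. The other 8 members did not pass the filter on low values. By limma without pairing no member was called and 0 had an unadjusted p under 0.05, in a fit in which 0.656% of all 13567 genes tested were called. No label pairs the cultures. Same-numbered libraries were taken as pairs because their deviations from group means correlated, at 0.711 to 0.856, in these same data. With the replicate number as a block in limma, both Bgn and Ogn were called higher in AdCRE cells. That fit called 36.2% of genes, 17.5% as higher and 18.7% as lower. The calls of Bgn and Ogn rest on this pairing.

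**Figure D4:**
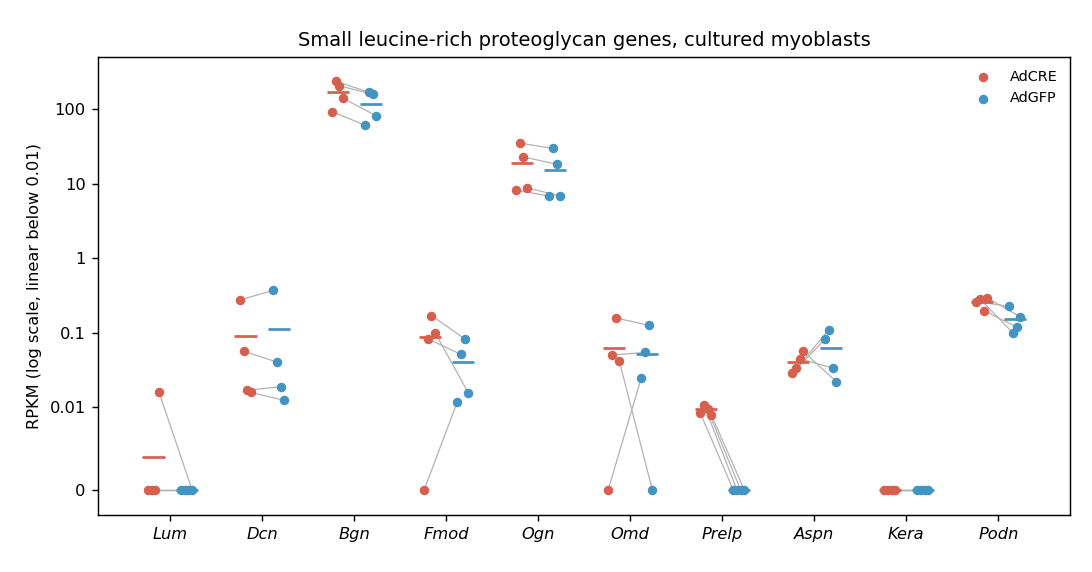
RPKM of the 10 SLRP genes in each cultured myoblast library (log scale, linear below 0.01 RPKM), with AdCRE points left of AdGFP points, grey lines joining libraries of the same replicate number and short lines for the group means. Bgn and Ogn were higher in AdCRE in each of the 4 pairs, while Lum and Kera were at or near 0.

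Bgn stood at 92.9, 238.2, 206.6 and 140.2 RPKM in AdCRE libraries 1 to 4, against 61.1, 169.4, 159.2 and 81.7 RPKM in AdGFP libraries 1 to 4. The groups overlapped, but the AdCRE library was the higher one in all 4 pairs, by 1.30 to 1.72 times. The limma log2 fold change of Bgn was 0.56 (SE 0.40, 95% interval -0.37 to 1.49, adjusted p = 0.561), and with the replicate block its SE was 0.07 and the adjusted p 0.00123. Ogn stood at 8.22, 35.1, 22.8 and 8.81 RPKM in AdCRE libraries 1 to 4, against 6.81, 29.9, 18.3 and 6.84 RPKM in AdGFP libraries 1 to 4. Replicates 2 and 3 were high and replicates 1 and 4 low in both groups, and the ratio within a pair was 1.17 to 1.29. The limma log2 fold change of Ogn was 0.28 (SE 0.61, 95% interval -1.12 to 1.69, adjusted p = 0.878), and with the replicate block its SE was 0.04 and the adjusted p 0.00283.

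Dcn and Lum, the members with the largest fold changes in sorted cells, were barely present in culture. Dcn had about 17, 3, 1 and 1 reads in AdCRE libraries 1 to 4, against 20, 2, 1 and 1 reads in AdGFP libraries 1 to 4. The level followed the replicate number and not the virus. Lum had 1 read in AdCRE library 4 and 0 in the other 7 libraries, and Kera had 0 in all 8. With counts this low, no change of Lum, Dcn or Kera was detectable in culture.

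Podn stood at 0.261, 0.284, 0.198 and 0.292 RPKM in AdCRE libraries 1 to 4, against 0.226, 0.0989, 0.120 and 0.163 RPKM in AdGFP libraries 1 to 4. The AdCRE library was higher in all 4 pairs, and the groups overlapped in 1 library. The exact two-sided permutation p for Podn was 0.0571, and within pairs it was 0.125, the smallest that 4 pairs allow. Fmod had about 0, 7, 16 and 10 reads in AdCRE libraries 1 to 4, against 1, 4, 7 and 2 reads in AdGFP libraries 1 to 4. Omd had at most 7 reads and Aspn at most 6 in any library. Prelp had 1 read in each AdCRE library and 0 in each AdGFP library. With single reads, the exact two-sided permutation p of 0.0286 for Prelp, the smallest 4 against 4 allow, describes a difference at or below the floor of 3 reads, and no fold is given.

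Bgn and Ogn were tested in both settings, so that the sizes of their changes could be set side by side. The log2 fold change of Bgn was 0.74 larger in sorted cells than in culture (SE 0.45, adjusted p = 0.390 by the difference of the limma fits, in which 5.01% of 11941 genes were called). With the replicate block in culture the SE was 0.20 and the adjusted p 0.0176, where 16.6% of genes were called. For Ogn the difference was -0.29 (SE 0.66, adjusted p = 0.865), and it was not called with the block (adjusted p = 0.482). The other members could not be compared because they did not pass the filter in culture.

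The members lie in groups on shared chromosomes, by RefSeq annotation of GRCm38.p6. Dcn, Lum, Kera and their relative Epyc lie within 202 kb at chr10:97479500-97681908, with Dcn at chr10:97479500-97518163 and Lum at chr10:97565501-97572703. Of these neighbours Dcn and Lum were higher in Chd4dPax7ER cells, Kera was listed above 0 in 1 sorted library, and Epyc averaged 0.015 RPKM in Chd4dPax7ER cells and 0 in Chd4fl/fl cells. Btg1, the nearest upstream gene with a signal, lies at chr10:96617001-96622813, farther from Dcn than the group is long. Btg1 averaged 43.8 RPKM in Chd4dPax7ER cells and 44.3 RPKM in Chd4fl/fl cells, a log2 fold change of -0.02. The other 5 flanking genes of that group were listed at 0 in sorted cells.

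Ecm2, Aspn, Omd and Ogn lie within 120 kb at chr13:49504810-49624501, inside the annotated span of Cenpp (chr13:49464025-49652950), a kinetochore gene. The strand setting of the counting is not known here, so reads of Cenpp and of these members may not be fully separated. Cenpp had a limma log2 fold change of -0.41 in sorted cells (adjusted p = 0.168), and none of its tested neighbours there was called. Optc, Prelp and Fmod lie within 151 kb at chr1:133897193-134048280, where no member and no tested neighbour was called in sorted cells. Optc was under the filter, at a mean of 0.518 RPKM in Chd4dPax7ER cells and 0.0725 RPKM in Chd4fl/fl cells. The Optc groups did not overlap, beside 30.3% of all genes tested whose groups lay apart in either direction. Its exact two-sided permutation p of 0.0286 is the smallest that 4 against 4 allow, and 1 Chd4fl/fl library was at 0. Bgn lies apart from other SLRP genes at chrX:73483601-73495936, and Podn lies apart from other SLRP genes at chr4:108014793-108031954. Of the 3 listed genes on either side of Podn, Cpt2, the farthest on its side (chr4:107903982-107923589), was called in sorted cells at 0.93 (adjusted p = 0.00161). The 2 largest fold changes thus came from 1 chromosomal group, and Bgn came from another chromosome.

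Bgn and Ogn are the members expressed in both settings, and they parted in sorted cells while moving together in the pairs in culture, so their upstream sequences are shown. RefSeq (GRCm38.p6) gave upstream windows for 8 of the 10 members, and Lum and Dcn were not among them. Each sequence is the 250 bases before the annotated start, 5′ to 3′ on the gene's strand, which is the plus strand for both, at chrX:73483351-73483600 for Bgn and chr13:49607765-49608014 for Ogn. Capitals mark E boxes (CANNTG, the core that MyoD-family factors bind, which reads the same pattern on both strands) and TATAAA on either strand.
Bgn: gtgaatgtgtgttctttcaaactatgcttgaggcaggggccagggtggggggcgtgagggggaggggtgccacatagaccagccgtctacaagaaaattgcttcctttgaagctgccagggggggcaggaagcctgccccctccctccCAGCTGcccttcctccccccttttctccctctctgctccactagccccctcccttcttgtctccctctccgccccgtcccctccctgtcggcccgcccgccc
Ogn: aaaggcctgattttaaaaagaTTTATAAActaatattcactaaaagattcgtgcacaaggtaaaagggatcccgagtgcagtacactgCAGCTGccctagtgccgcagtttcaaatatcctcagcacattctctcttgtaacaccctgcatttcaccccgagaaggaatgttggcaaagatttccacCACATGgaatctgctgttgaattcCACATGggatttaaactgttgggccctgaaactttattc
The Bgn window held 1 E box, no TATAAA and 7 CpG sites at 64.4% GC. The Ogn window held 3 E boxes, a TATAAA match and 4 CpG sites at 42.0% GC. Over all 32851 windows of the same length, 66.2% held an E box, 12.2% held 3 or more and 12.4% held TATAAA, with a median of 6 CpG sites and 52.4% GC. The matches describe these letters only.

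The enzymes, partners and proteases of the SLRPs were read from lists of genes in the same fits. Among 22 genes for synthesis of chondroitin and dermatan sulphate chains, 19 were tested in sorted cells, of which 6 were higher and 2 lower in Chd4dPax7ER cells. These shares, 31.6% and 10.5%, stand beside 14.7% of all genes tested higher and 11.9% lower. B4galt7, which adds a galactose of the chain linker, averaged 4.08 ± 0.148 RPKM in Chd4dPax7ER cells and 2.29 ± 0.450 RPKM in Chd4fl/fl cells (limma log2 fold change 0.73, adjusted p = 0.00785). B3gat3, which completes that linker, had 0.62, and the chondroitin polymerizing factor Chpf2 had 0.87. The sulphotransferases Chst15 and Chst11 had 0.72 and 0.65. Chst14, the sulphotransferase of dermatan sulphate, was lower, at 1.47 ± 0.534 RPKM in Chd4dPax7ER cells and 2.80 ± 0.614 RPKM in Chd4fl/fl cells (-0.77, adjusted p = 0.0338). The median of the 19 log2 fold changes was 0.21.

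For keratan sulphate synthesis, 3 of 8 genes were tested and Chst1, a keratan sulphate sulphotransferase, was higher (limma log2 fold change 1.11, adjusted p = 0.0440) with overlapping groups. Of the 8 less studied SLRP relatives 3 were tested, and tsukushi (Tsku) was higher, at 3.95 ± 0.228 RPKM in Chd4dPax7ER cells and 2.21 ± 0.924 RPKM in Chd4fl/fl cells (0.78, adjusted p = 0.0347). These 2 lists are too short for their shares of 33.3% to be read against 14.7%.

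Collagens, the fibrils that SLRPs bind, did not move as Dcn and Lum did. Of 14 fibrillar and fibril-associated collagen genes 11 were tested in sorted cells, and Col1a1 alone was called, at 23.5 ± 7.94 RPKM in Chd4dPax7ER cells and 7.45 ± 2.37 RPKM in Chd4fl/fl cells (limma log2 fold change 1.60, SE 0.29, adjusted p = 0.00406). The share called higher, 9.09%, was under the 14.7% of all genes tested, and the median of the 11 was -0.08. Col1a1 was also the 1 of 8 tested collagen genes called in culture without the block, at 1.28 ± 0.506 RPKM in AdCRE cells and 0.0626 ± 0.0225 RPKM in AdGFP cells (1.62, SE 0.21, adjusted p = 0.0175).

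Of 15 growth factors and receptors that SLRPs bind, 13 were tested in sorted cells, with 4 higher, 3 lower and a median log2 fold change of 0.33. The shares were 30.8% higher and 23.1% lower, beside 14.7% and 11.9% of all genes tested. Tgfb1, the ligand held by decorin, biglycan and fibromodulin, averaged 17.1 ± 1.72 RPKM in Chd4dPax7ER cells and 9.38 ± 1.38 RPKM in Chd4fl/fl cells (limma log2 fold change 0.84, adjusted p = 0.00148). Met, the hepatocyte growth factor receptor and a decorin-binding receptor, was lower, at 40.6 ± 8.36 RPKM in Chd4dPax7ER cells and 74.5 ± 4.79 RPKM in Chd4fl/fl cells (-0.89, adjusted p = 0.00273). Tlr2, a receptor for biglycan, had 0.60, the decorin uptake receptor Lrp1 had 0.59 and the latent TGF-β binding protein Ltbp1 had 0.41. Tgfbr2, a receptor of TGF-β, was lower at -0.37.

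Of 11 proteases that cut SLRPs, 8 were tested in sorted cells, with a median log2 fold change of 0.90. Of these 8, 4 were higher and none lower, beside 14.7% and 11.9% of all genes tested. Mmp2, gelatinase A, stood at 40.3, 54.7, 58.8 and 38.6 RPKM in Chd4dPax7ER libraries 1 to 4, against 7.85, 7.39, 13.2 and 7.10 RPKM in Chd4fl/fl libraries 1 to 4. These groups were far apart, and the limma log2 fold change was 2.39 (SE 0.21, adjusted p = 0.000141). Mmp9, gelatinase B, had 1.39 (adjusted p = 0.0212), the membrane-anchored Mmp14, which activates Mmp2, had 1.19 (adjusted p = 0.000883) and the secreted serine protease Htra1 had 0.83 (adjusted p = 0.000750). In culture none of 9 tested proteases was called by limma without the block (3 had an unadjusted p under 0.05), and 7 of 9 were called higher with it, beside 17.5% of all genes.

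Among 25 other proteoglycan core genes 19 were tested in sorted cells, with 6 higher, 3 lower and a median log2 fold change of 0.13. The shares were 31.6% higher and 15.8% lower, beside 14.7% and 11.9% of all genes tested. Cspg4 (NG2) had 1.43, the syndecan Sdc3 1.33, agrin (Agrn) 1.10 and Sdc1 0.59. Versican (Vcan), a large chondroitin sulphate proteoglycan of provisional matrix, was lower, at 15.2 ± 3.67 RPKM in Chd4dPax7ER cells and 31.4 ± 5.16 RPKM in Chd4fl/fl cells (limma log2 fold change -1.04, adjusted p = 0.00277), and the glypican Gpc6 had -0.90 (adjusted p = 0.00447). In culture, limma without the block called none of these cores, none of the chondroitin and dermatan sulphate synthesis genes and none of the growth factors and receptors, with 3, 5 and 3 genes at an unadjusted p under 0.05. With the block, 3 were higher and 4 lower of 18 chain synthesis genes, 3 higher and 2 lower of 12 growth factors and receptors, 4 higher and 2 lower of 8 collagens, and 1 higher and 5 lower of 16 other cores, beside 17.5% of all genes higher and 18.7% lower. The shares of the chain synthesis genes, 16.7% higher and 22.2% lower, were near those of all genes.

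**Figure D5:**
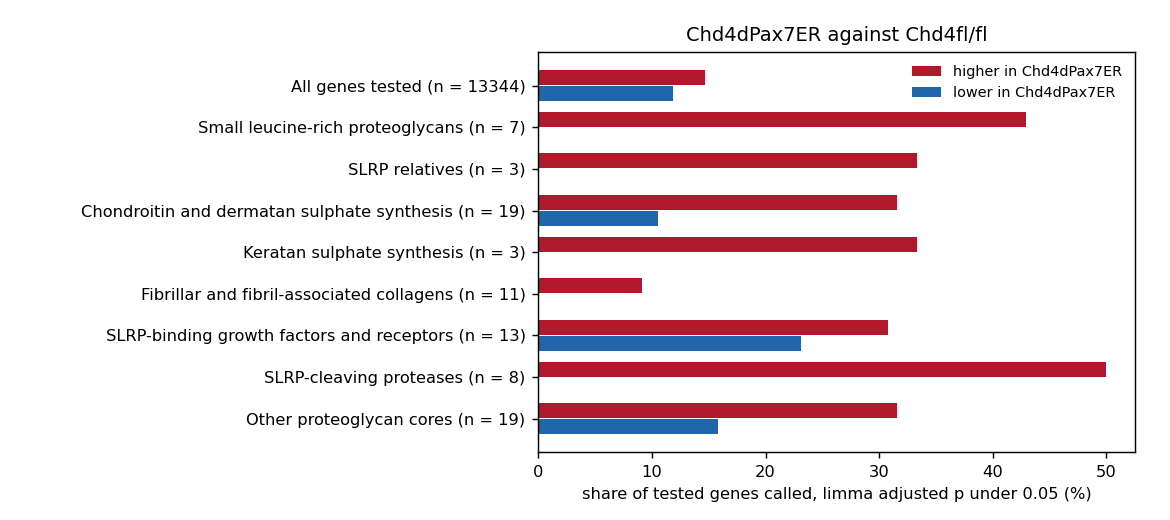
Share of tested genes of each list that were called higher (red) or lower (blue) in Chd4dPax7ER than in Chd4fl/fl cells, in percent, with all 13344 tested genes at the top and the number tested in brackets. SLRPs had 3 of 7 called higher, proteases 4 of 8 and collagens 1 of 11, beside 14.7% of all genes.

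In culture, markers of other cells also moved beside Bgn and Ogn. Ly6a averaged 12.4 ± 2.40 RPKM in AdCRE cells and 2.54 ± 1.06 RPKM in AdGFP cells (limma log2 fold change 2.13, adjusted p = 0.0113), the 1 of 5 tested fibroblast markers called without the block. With the block, the fit in which Bgn and Ogn were called, 4 of these 5 were higher. Among all genes tested with the block, 17.5% were called higher and 18.7% lower. The fibroblast list summed to 96.8 to 125.0 RPKM in AdCRE libraries and 59.0 to 87.0 RPKM in AdGFP libraries, with Dpt, Mfap5 and Tcf21 at 0 in all 8. Gsn was its largest part, averaging 61.4 RPKM in AdCRE cells and 40.4 RPKM in AdGFP cells. Pdgfra averaged 0.41 RPKM in both groups. Rgs5 was the 1 of 4 tested pericyte markers called without the block, and 3 of 4 were higher with it. The pericyte list summed to 206.9 to 468.5 RPKM in AdCRE libraries and 64.5 to 135.7 RPKM in AdGFP libraries. Most of this sum was Rgs5, at 175.5 to 403.4 RPKM in AdCRE libraries and 46.4 to 104.3 RPKM in AdGFP libraries. Myofibre genes summed to 1149 to 4409 RPKM in AdCRE libraries and 891.2 to 3586 RPKM in AdGFP libraries, and in both groups replicates 2 and 3 were high and replicates 1 and 4 low, as for Bgn and Ogn. With the block 7 of 8 myofibre genes were higher, against 0 without it, and of 9 tested satellite cell markers 3 were lower and none higher. The markers called higher with the block were 1 of 2 endothelial, 1 of 1 leukocyte, 1 of 1 Schwann, 1 of 4 cartilage and bone and 0 of 2 tenocyte markers, and 1 cartilage and bone marker was lower. The part of these cells in the Bgn and Ogn values was not tested.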

How the data were processed

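The authors deposited 1 RPKM table per setting, with 46078 genes each; the sorted cell values are rounded to 2 decimals. The submitters' processing notes list builds GRCm38 and mm10 and, for RNA-seq and ATAC-seq together, HISAT2 2.1.0, cutadapt 1.18, DESeq2 3.6, Picard 2.18.15, FastQC 0.11.8, HOMER and MACS2 2.1.2. Which program counted reads, with which gene lengths and strand setting, is not stated there. The 8 ATAC-seq samples were not analysed here.

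Genes with RPKM of at least 0.5 in at least 4 of 8 libraries were fitted as log2(RPKM + 0.5) with limma 3.58.1 (trended moderated variances, R 4.3.3), with Benjamini-Hochberg adjustment over all genes tested. Members under the filter were tested by exact permutation of samples. Fold changes of both settings were compared by a moderated t on their difference. The scripts were tested on simulated data. Named genes are all members, Chd4, the 5 genes most like Lum, neighbours of the clusters, and up to 6 called genes per list in sorted cells and 3 in culture; others named were chosen after their values were seen. The members and lists were chosen with earlier results of these data known.

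Deviations from group means correlated between same-numbered libraries at 0.711 to 0.856 in culture, where the numbers were taken to pair the samples, and at -0.0967 to 0.0499 in sorted cells, where they were not. Read numbers rest on RPKM steps: of 17973 low sorted cell values, 99.6% lay within 0.2 of a whole read. The deepest library had 1.64 times the reads of the shallowest in culture and 1.14 times in sorted cells. They cover counting error only.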

Additional observations from a re-analysis of the deposited data

Results flagged for a closer look

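Of 35 groups of 4 libraries checked, 4 held a library far from the other 3 of its group. Any value above 0 beside 3 values at 0 is flagged, as for Lum and Kera below. The usual chance rate of about 1 in 20 does not hold for such groups, so 4 of 35 is not read against it. All 4 flags concern members under the filter on low values. Lum in culture was listed at 0.0158 RPKM in AdCRE replicate 4 and at 0 in the other AdCRE libraries. Dcn in culture stood at 0.275 RPKM in AdCRE replicate 1, against 0.0158 to 0.0563 RPKM in the other AdCRE libraries. In AdGFP cells the same replicate number was apart, with Dcn at 0.371 RPKM in replicate 1 and 0.0124 to 0.0405 RPKM in the others. Kera was listed at 0.23 RPKM in Chd4dPax7ER replicate 2 and at 0 in the other Chd4dPax7ER libraries.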

How the results depend on the processing

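Lum, Dcn and Bgn were called higher in Chd4dPax7ER cells under every alternative run: pseudocounts of 0.1 and 1, a stricter and no filter, TPM scaling, quantile normalization, no variance trend, the replicate block and leaving out each library. Their log2 fold changes without 1 library were 3.98 to 4.29, 3.05 to 3.39 and 1.16 to 1.45. The number of members called there was 3 to 5 without 1 library. In culture it was 0 without any 1 library and 2 with the replicate block. In sorted cells, where the numbers were not taken to pair the samples, the block took Prelp past the threshold (adjusted p = 0.0378 by limma). There the block also took the lists' higher calls from 1 to 0 for SLRP relatives and for keratan sulphate synthesis. For chondroitin and dermatan sulphate synthesis it took the higher calls from 6 to 4, and for other proteoglycan cores from 6 to 5. For proteases it raised the higher calls from 4 to 6. For growth factors and receptors that were lower, it took the calls from 3 to 1. Over all genes tested in sorted cells, 14.7% were called higher without the block and 12.7% with it. Over all genes in culture, 89 were called without the block and 4907 with it. With it, the Bgn difference between the settings passed, and the Ogn difference did not.

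Signs near 0 turned. Without 1 library the log2 fold change of Ogn was -0.10 to 0.68 in culture and -0.18 to 0.20 in sorted cells, and that of Fmod was -0.02 to 0.81, at its lowest without Chd4dPax7ER replicate 2 (-0.019). Bgn in culture was 0.29 to 0.82. Read numbers of Omd, Kera and Podn in sorted cells, and of every member but Bgn and Ogn in culture, limit what can be seen.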
